A study of Bubalus bubalis with 12 samples.

Results

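The transcripts described here are 9 genes of the complement system in the ruminal wall of the water buffalo (Bubalus bubalis): C1QA, C1QB, C1QC, C1R, C1S, C3, CFB, SERPING1 and CD55. They were the rows of the expression table that carry these symbols, 9 of 34037 genes, measured in 12 animals. RNA from frozen pieces of ruminal wall of Italian Mediterranean dairy buffaloes was sequenced with 1 library per animal. Control buffaloes (n = 6) ate a total mixed ration, and treated buffaloes (n = 6) ate the same kind of ration with about 30% green feed, freshly cut ryegrass, which also raised the share of forage over concentrate. All 12 were mature milking cows of one commercial herd. No genotype or drug treatment separated the groups, and the question put to the tissue was what the green feed changes in its transcripts.

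Complement is a set of proteins that mark microbes and dying cells for removal. In the classical pathway the recognition molecule C1q, built from the products of C1QA, C1QB and C1QC, binds a target and switches on the attached proteases C1r and then C1s, and the convertase that follows cleaves C3. The alternative pathway makes its own C3 convertase from C3 and factor B, the product of CFB, while the C1 inhibitor, encoded by SERPING1, and the membrane protein CD55 hold these steps back. The liver supplies most circulating complement, but macrophages, fibroblasts and epithelia also make several of its components, and the rumen wall is a keratinised epithelium on connective tissue and muscle that faces a dense microbial community.

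The table gives FPKM, fragments per kilobase of gene scaled to the counted fragments of the library, and the whole fragments (called reads below) behind every value could be computed back. Each library held 10531541 to 12948372 counted fragments, so that 3 reads of C1QC corresponded to 0.181 to 0.223 FPKM. Epithelial markers were high in every piece of wall: 8 of the 10 listed epithelial genes were found, their summed level ran from 2749 to 4594 FPKM in control and from 2505 to 5371 FPKM in treated animals, and the basal keratin KRT5 averaged 1493 FPKM. Hepatocyte markers summed to at most 2.61 FPKM in any animal, and APOB was at 0 throughout. In whole tissue, fewer cells of a type and less RNA per cell cannot be told apart.

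By their means 4 genes stood higher and 5 lower. Over the 12 animals CFB averaged 16.1 FPKM, C1R 10.4, CD55 8.80 and C1S 7.64, followed by C3 at 2.70, C1QB at 1.68, SERPING1 at 1.61, C1QA at 1.55 and C1QC at 1.01 FPKM. Of the steps between neighbours in this order, only that from C1S to C3 was present in every animal, C1S lying above C3 in 12 of 12. Other genes crossed this step: in control 6 the CD55 row (4.18 FPKM) lay below C3 and C1QA (5.20 FPKM each), and in control 3 CFB (7.27 FPKM) lay below C3 (7.33 FPKM). CFB lay above C1R in 6 of 12 animals, C1R above CD55 in 7, CD55 above C1S in 7, C3 above C1QB in 8, C1QB above SERPING1 in 7, SERPING1 above C1QA in 8 and C1QA above C1QC in 10, so these neighbours in the order were not separated beyond the spread between animals. The protease genes C1R and C1S together were 2.58 to 12.6 times as high as the 3 C1q chains together.

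**Figure D1:**
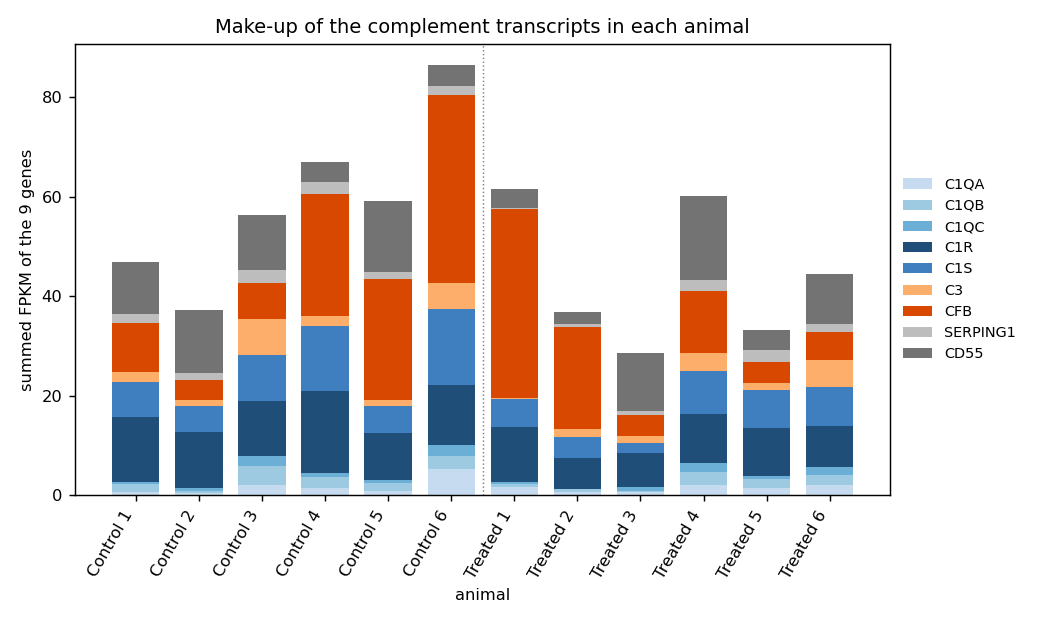
Summed FPKM of the 9 complement genes (vertical axis) in each of the 6 control and 6 treated animals, with 1 coloured segment per gene. The total ran from 37.1 to 86.4 FPKM in control and from 28.6 to 61.5 FPKM in treated animals, and the CFB segment ran from 10.9% to 61.7% of it.

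C1R, the protease of the C1 complex that C1q sets off first, was lower in the treated animals (gene 102395781). Its level was 12.9, 11.3, 11.1, 16.5, 9.27 and 12.2 FPKM in control animals 1 to 6 and 10.9, 6.15, 6.81, 9.76, 9.56 and 8.27 FPKM in treated animals 1 to 6. All 6 treated animals lay below the control median of 11.7 FPKM, 3 of them lay below the lowest control, and 5 of the 6 controls lay above the highest treated animal. The groups therefore overlapped through control 5 and treated animals 1, 4 and 5.

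The mean C1R level was 12.2 ± 2.45 FPKM (SD, n = 6) with the control ration and 8.58 ± 1.84 FPKM (SD, n = 6) with green feed, a ratio of 0.702. On the log2(FPKM + 0.01) scale the difference was -0.52 (SE 0.17, 95% interval -0.88 to -0.15), with a nominal limma p of 0.00938, which ranked 20 of the 12740 genes tested. An exact two-sided permutation test over the 924 assignments of the animals gave p = 0.0152. Adjusted over all genes tested by Benjamini-Hochberg in limma, p was 0.9996, so C1R passed the nominal threshold of 0.05 alone and not the adjusted one. C1R rested on 212 to 600 reads per animal, and its within-group SD of 0.30 on the log2 scale was the smallest of the 9 genes and close to the median of 0.36 over all genes tested.

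C1R was the only 1 of the 9 genes below the nominal threshold. The background over all genes tested was 1.26% (161 of 12740) in either direction and 0.463% in the lower direction. A nominal threshold of 0.05 marks a share of 0.05 on average when no gene differs, and the share here was lower. The authors had already listed C1R as reduced in these same animals, by a nominal edgeR p. They reported that edgeR gave no gene at an FDR-adjusted p below 0.05. The 9 genes were chosen with earlier results of these data known. Their count against the background is therefore a description and cannot serve as a test of the set. No gene passed the adjusted threshold in limma, where the smallest adjusted p was 0.9996. Of the 9 genes 8 entered the test, which asked for 40 scaled reads in at least 1 animal, and C1QC did not. The log2 difference was negative in 7 of the 8 with a median of -0.57, against a median of 0.00 and 48.8% negative over all genes tested. The 8 are not independent of each other, since several went together across the animals.

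**Figure D2:**
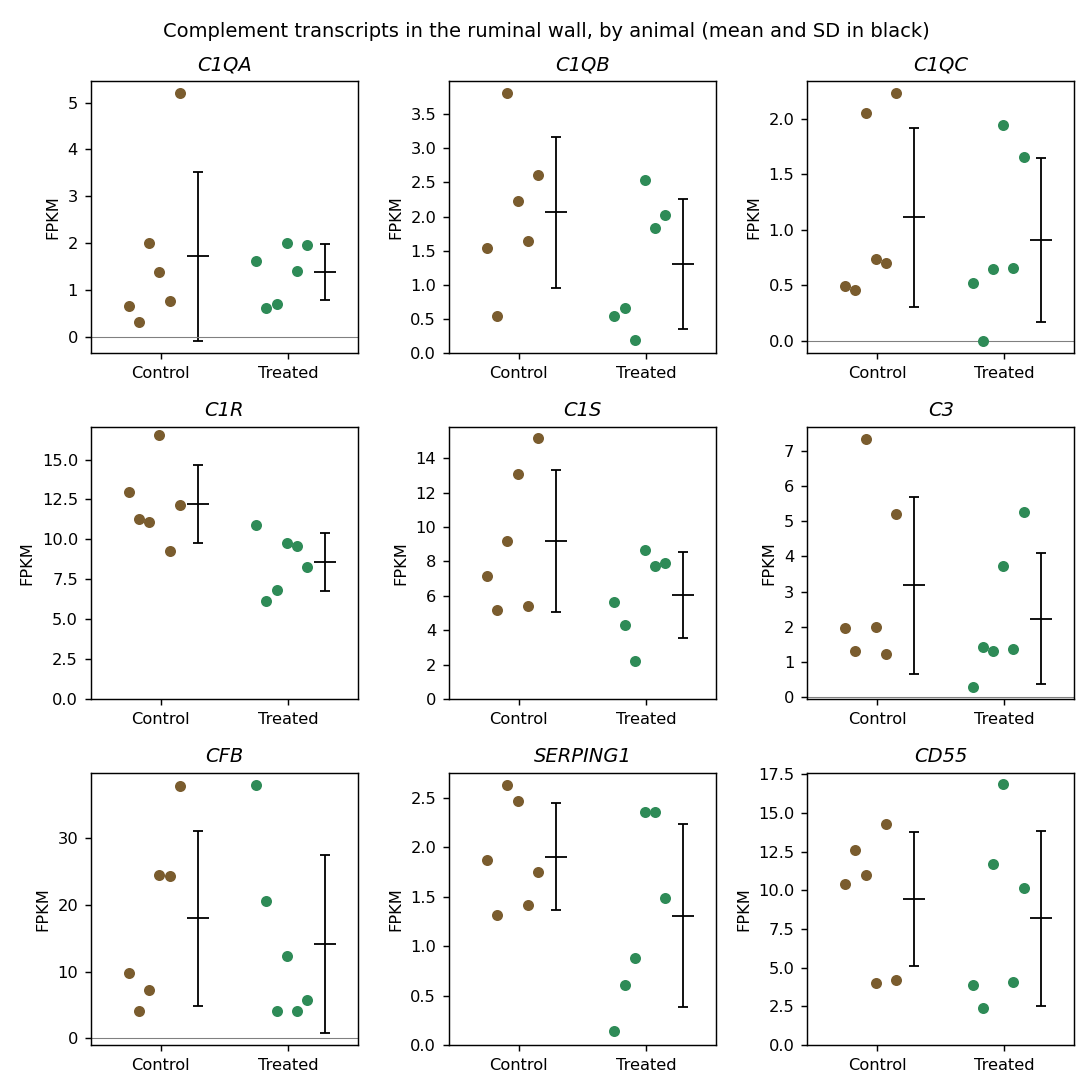
FPKM of each of the 9 genes in the 6 control and 6 treated animals (1 point per animal), with the group mean and SD in black and a separate vertical axis per gene. The groups overlap in every panel, least in that of C1R, where all 6 treated animals lie below the control median.

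C1S, the protease that C1r activates and that cleaves the next components, did not pass the test (gene 102392362). It stood at 7.17, 5.20, 9.18, 13.1, 5.43 and 15.2 FPKM in control animals 1 to 6 and at 5.62, 4.31, 2.19, 8.67, 7.74 and 7.88 FPKM in treated animals 1 to 6. Only treated animals 2 and 3 lay below the lowest control, and only controls 3, 4 and 6 lay above the highest treated animal. The means were 9.21 ± 4.13 and 6.07 ± 2.5 FPKM (SD, n = 6), and the log2 difference of -0.62 (SE 0.36, 95% interval -1.38 to 0.15) had a nominal limma p of 0.106 and an exact permutation p of 0.162. This difference was as large as that of C1R, but C1S spread more within the groups, with an SD of 0.70 on the log2 scale, above that of 86.6% of genes tested.

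C1R and C1S lie side by side, with a pseudogene between them, in the RefSeq annotation of the NDDB_SH_1 assembly. A positive relation of their levels across the animals did not pass the adjusted threshold. Pearson's r of their log2 levels was 0.72 (permutation p = 0.00896, adjusted 0.0806 over the 9 relations computed, n = 12) and Spearman's rho was 0.60 (permutation p = 0.0426, adjusted 0.0548). Within the groups r was 0.63 in control and 0.66 in treated animals (n = 6 each), and it was 0.65 without control 4 and treated animal 2, the farthest from the median C1R level. The log2 ratio of C1R to C1S averaged 0.50 ± 0.52 in control and 0.61 ± 0.59 in treated animals (SD, n = 6), a difference of 0.10 with an exact permutation p of 0.764. Control 6 was the only animal with more C1S than C1R.

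The 3 chains of C1q are encoded next to each other in the same annotation, in the order C1QB, C1QC and C1QA, and none passed the test. C1QA (gene 102404539) stood at 0.664, 0.311, 2.01, 1.39, 0.756 and 5.20 FPKM in control and at 1.63, 0.616, 0.695, 2.00, 1.41 and 1.97 FPKM in treated animals 1 to 6. Control 6 stood far above the 11 others, which overlapped. The mean was higher in control (1.72 ± 1.81 against 1.39 ± 0.607 FPKM, SD, n = 6) while the log2 difference was 0.12 (SE 0.57, 95% interval -1.11 to 1.35), with a nominal limma p of 0.833 and an exact permutation p of 0.890.

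C1QB (gene 102405769) stood at 1.54, 0.542, 3.80, 2.23, 1.65 and 2.61 FPKM in control and at 0.540, 0.670, 0.202, 2.54, 1.84 and 2.03 FPKM in treated animals 1 to 6. Treated animals 1 and 3 lay below the lowest control, control 2, treated animal 2 lay just above it, and the other 3 lay among the controls. The log2 difference of -0.90 (SE 0.61, 95% interval -2.20 to 0.41) had a nominal limma p of 0.162 and an exact permutation p of 0.236. C1QC (gene 102404864) stood at 0.498, 0.460, 2.05, 0.740, 0.702 and 2.23 FPKM in control and at 0.523, 0, 0.651, 1.95, 0.660 and 1.66 FPKM in treated animals 1 to 6. In both groups a pair of animals was high and the rest were at or below 0.740 FPKM. With at most 34 reads in an animal C1QC was under the read minimum, and in a fit of all 22972 genes above 0 its log2 difference was -1.04 (SE 1.06, nominal limma p of 0.345, exact permutation p of 0.498). The 0 of treated animal 2 allows a level of up to 0.195 FPKM, 3 reads. On the log2 scale this 0 stood at -6.64, while all other animals lay between -1.09 and 1.16. The C1QC difference of -1.04 therefore rests on that animal, and the ratio of the mean FPKM, treated over control, was 0.814. A further gene model, LOC102405428, overlaps C1QC in NDDB_SH_1 and held at most 3 reads in any animal.

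The summed C1q level was 4.89 ± 3.36 FPKM in control and 3.60 ± 2.15 FPKM in treated animals (SD, n = 6), the lowest animal of each group standing at 1.31 and 1.29 FPKM. The chains ranked the animals alike. Spearman's rho was 0.90 for C1QA with C1QC (permutation p = 0.00017, adjusted 0.00153), 0.86 for C1QB with C1QC (p = 0.0007, adjusted 0.00315) and 0.76 for C1QA with C1QB (p = 0.00629, adjusted 0.0113), each over 12 animals. Pearson's r on the log2 scale was 0.57 (adjusted permutation p = 0.142), 0.48 (0.142) and 0.62 (0.138) for the same pairs, in which treated animal 2 stood at 0 for C1QC and C1QA and C1QB rested on 3 to 61 reads per animal. Without the 2 animals farthest from the median of the first gene, r was 0.65, 0.74 and 0.57. Within groups, in the same order of pairs, r was 0.91, 0.79 and 0.83 in control and 0.76, 0.36 and 0.74 in treated animals.

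C1q is chiefly a product of macrophages. Of 10 macrophage markers 9 were in the table, MARCO was at 0, and 4 were tested with 0 below the nominal threshold and a median log2 difference of 0.00. Their summed level ran from 32.4 to 50.4 FPKM in control and from 29.5 to 52.4 FPKM in treated animals, and their part in the differences of the C1q chains was not tested. The mean log2 level of the 3 C1q chains went with the mean log2 level of these markers with a Spearman's rho of 0.76 (permutation p = 0.00572, adjusted 0.0113) and a Pearson's r of 0.56 (p = 0.0571, adjusted 0.142) over 12 animals. Pearson's r was 0.77 in control and 0.37 in treated animals, and 0.72 without control 6 and treated animal 2.

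C3, the protein on which all pathways converge, had the widest fold range of the 8 genes tested (gene 102407588). Its level was 1.97, 1.30, 7.33, 2.00, 1.23 and 5.20 FPKM in control and 0.296, 1.43, 1.31, 3.73, 1.37 and 5.25 FPKM in treated animals 1 to 6, a 24.8-fold range. Controls 3 and 6 and treated animals 4 and 6 were high, treated animal 1 was low, and the others lay between 1.23 and 2.00 FPKM in both groups. The means of 3.17 ± 2.51 and 2.23 ± 1.86 FPKM (SD, n = 6) differed by -0.66 on the log2 scale (SE 0.63, 95% interval -2.02 to 0.70, nominal limma p of 0.315, exact permutation p of 0.394).

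CFB, which encodes the factor B of the alternative pathway, had the highest mean of the 9 genes and no difference beyond its spread (gene 102404663). It stood at 9.75, 4.05, 7.27, 24.6, 24.4 and 37.9 FPKM in control and at 38.0, 20.6, 4.15, 12.3, 4.18 and 5.77 FPKM in treated animals 1 to 6. Controls 4 to 6 and treated animals 1 and 2 were above 20 FPKM, and the lowest and highest values of both groups nearly coincided. The means were 18.0 ± 13.1 and 14.2 ± 13.3 FPKM (SD, n = 6), with a log2 difference of -0.46 (SE 0.64, 95% interval -1.82 to 0.90, nominal limma p of 0.481, exact permutation p of 0.541). With 119 to 1120 reads per animal, CFB still had a within-group SD of 1.28 on the log2 scale, above that of 97.3% of genes tested.

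The levels of CFB and C3 showed no relation that passed the test. Pearson's r of the log2 levels was -0.20 (permutation p = 0.546, adjusted 0.614) and Spearman's rho -0.03 (permutation p = 0.937, adjusted 0.937) over 12 animals. It was 0.13 in control and -0.54 in treated animals, and 0.28 without control 3 and treated animal 1. Without treated animal 1 alone it was 0.14, and without control 3 alone it was -0.13, so the negative sign rests on treated animal 1. Treated animal 1 combined the highest CFB with the lowest C3, a ratio of 129, and control 3 had a ratio of 0.993.

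**Figure D3:**
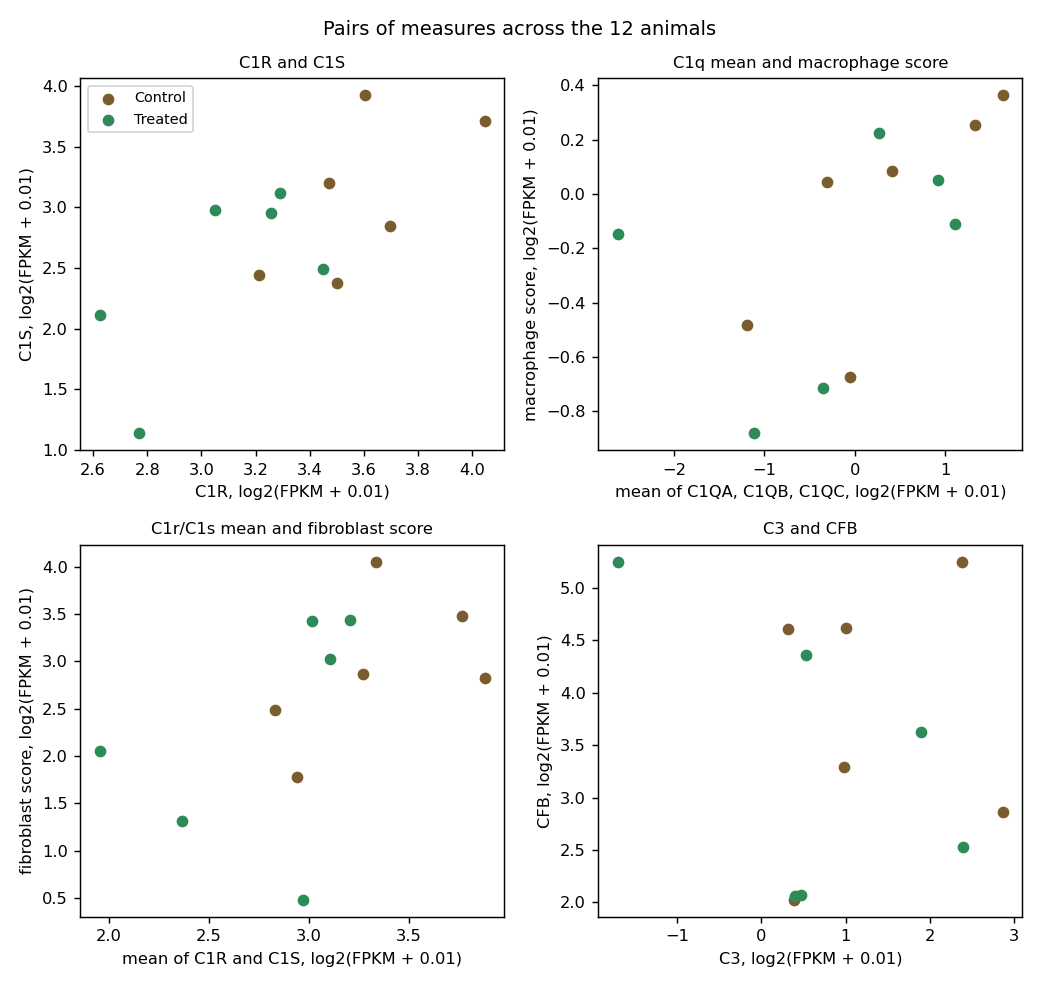
Each point is 1 animal (brown, control; green, treated) on log2(FPKM + 0.01) axes: C1S against C1R, the macrophage score against the mean of the C1q chains, the fibroblast score against the mean of C1R and C1S, and CFB against C3. The scores are means of the log2 levels of the marker genes, and the first 3 panels have rho of 0.60, 0.76 and 0.69, of which the first did not pass the adjusted threshold, and the last has a rho of -0.03.

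SERPING1, the inhibitor that removes C1r and C1s from the C1 complex, did not pass the test with all 12 animals (gene 102397742). Its level was 1.87, 1.31, 2.63, 2.46, 1.41 and 1.75 FPKM in control and 0.140, 0.603, 0.883, 2.36, 2.36 and 1.49 FPKM in treated animals 1 to 6. Treated animals 1 to 3 lay below every control, and treated animals 4 to 6 lay within the control range. The means were 1.91 ± 0.540 and 1.31 ± 0.925 FPKM (SD, n = 6) and the log2 difference was -0.98 (SE 0.56, 95% interval -2.19 to 0.23), with a nominal limma p of 0.105 and an exact permutation p of 0.147. The low value of treated animal 1 rests on 3 reads, and without that animal the log2 difference was -0.45 (nominal limma p of 0.239). The nominal limma p was 0.0457 without treated animal 4 and 0.0461 without treated animal 5.

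SERPING1 ranked the animals much like its target C1S, with a Spearman's rho of 0.78 (permutation p = 0.00431, adjusted 0.0113) and a Pearson's r of 0.50 (permutation p = 0.111, adjusted 0.142) over 12 animals. Pearson's r was 0.64 in control and 0.37 in treated animals, and 0.62 without control 6 and treated animal 3.

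CD55, also called decay-accelerating factor, breaks up C3 convertases on the body's own cells, and the row with this symbol did not pass the test (gene 112582766). It stood at 10.4, 12.6, 11.0, 4.0, 14.3 and 4.18 FPKM in control and at 3.89, 2.39, 11.7, 16.9, 4.07 and 10.2 FPKM in treated animals 1 to 6. The values fell into a low set at or below 4.18 FPKM, controls 4 and 6 and treated animals 1, 2 and 5, and a high set at or above 10.2 FPKM with animals of both diets. The means were 9.42 ± 4.34 and 8.18 ± 5.68 FPKM (SD, n = 6), a log2 difference of -0.36 (SE 0.49, 95% interval -1.41 to 0.68, nominal limma p of 0.467, exact permutation p of 0.519).

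The identity of the CD55 row is uncertain. RefSeq, as annotated on NDDB_SH_1, does not hold that gene number and gives the symbol CD55 to gene 102390054, which the table lists as LOC102390054. That gene was even across the animals, with 14.8 ± 2.58 FPKM in control and 14.4 ± 2.10 FPKM in treated animals (SD, n = 6), a log2 difference of -0.03 (nominal limma p of 0.813) and a within-group SD of 0.22 against 0.97 for the CD55 row. Whether the sequences of both rows are alike enough to confuse their reads was not tested. No relation of the CD55 row to the epithelial markers passed the test (Pearson's r -0.14, permutation p = 0.675, adjusted 0.675, and Spearman's rho -0.14, permutation p = 0.669, adjusted 0.752, n = 12), with r of 0.62 in control and -0.48 in treated animals and 0.17 without treated animals 1 and 2.

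Markers of connective tissue and muscle were read from the same fit. All 10 fibroblast markers were tested and 0 passed the nominal threshold, but all 10 log2 differences were negative, with a median of -0.66, and their summed level ran from 48.9 to 298 FPKM in control and from 21.3 to 190.4 FPKM in treated animals. Of 7 smooth muscle markers tested, 1 was below the nominal threshold, the muscle filament gene DES (-1.04, SE 0.42, exact permutation p of 0.0519), and all 7 differences were negative with a median of -0.72 (sums of 29.7 to 51.6 and 16.9 to 42.3 FPKM). The mean log2 level of C1R and C1S went with that of the fibroblast markers with a Spearman's rho of 0.69 (permutation p = 0.0156, adjusted 0.0234) and a Pearson's r of 0.53 (permutation p = 0.0791, adjusted 0.142) over 12 animals. Pearson's r was 0.52 in control and 0.41 in treated animals, and 0.65 without control 4 and treated animal 3. The mean of C1R and C1S does not show how far either gene alone went with these markers, which was not tested. Treated animal 1 had the lowest fibroblast score, 0.48, with C1R at 3.45 and C1S at 2.49 on the log2 scale. Treated animal 2 had the next lowest score, 1.32, with C1R at 2.62 and C1S at 2.11.

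With a score of both marker lists as a covariate, the C1R difference was -0.51 (SE 0.19, nominal limma p of 0.0202), as large as without it. In the same fit the difference of C1S was -0.37 (SE 0.36), that of SERPING1 -0.20 (SE 0.34), that of C1QB -0.24 (SE 0.51) and that of C3 0.23 (SE 0.37), so these were nearer to 0 than without the score and C3 changed sign. The CD55 row stood at -0.02 (SE 0.50), also nearer to 0. CFB stood at -0.87 (SE 0.66) and C1QA at 0.57 (SE 0.57) in that fit, and C1R alone was below the nominal threshold. The background of that fit was 1.11% of genes tested below the nominal threshold in the lower direction. It gives no test of the set either, because C1R was already a call of the authors.

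Among other complement genes, 0 of 14 tested were below the nominal limma threshold, against 1.26% of all genes tested. At that share a count of 0 says little about 14 genes. A list of 44 further complement genes had 39 in the table, and C4A, C4B, FCN1, FCN2 and CR1 were not found under these symbols. Of the 39, 8 were at 0 in all animals, among them the terminal component C5, the lectin MBL2 and the C8 chains C8A and C8B. Others were under the read minimum, so the system was covered only in part. High levels were those of regulators and binding proteins: clusterin (CLU, 148 FPKM on average), which blocks the terminal complex, CD46 (69.6 FPKM), a cofactor for C3b cleavage, C1QBP (57.9 FPKM), a C1q-binding protein that is mainly mitochondrial, and CD59 (17.3 FPKM), which stops the terminal pore. Their means exceeded that of CFB, the highest of the 9 genes.

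The log2 differences of the 14 had a median of -0.14, 10 negative and 4 positive, and ran from -0.93 for C7 of the terminal complex (SE 0.79, exact permutation p of 0.268) to 0.44 for C8G (SE 0.23, exact permutation p of 0.0931). CD46 differed by -0.03 and C1QBP by 0.05, the smallest differences of the set, CLU by -0.14 and CD59 by -0.34 (SE 0.18, exact permutation p of 0.102). Leaving out 1 animal brought CD59 (without control 4 or treated animal 5), C8G (without control 5 or treated animal 5) or CLU (without control 6) below the nominal threshold. C2, the classical counterpart of factor B, whose gene is a neighbour of CFB in NDDB_SH_1, averaged 1.75 FPKM and differed by -0.68 (SE 0.93, exact permutation p of 0.541).

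**Figure D4:**
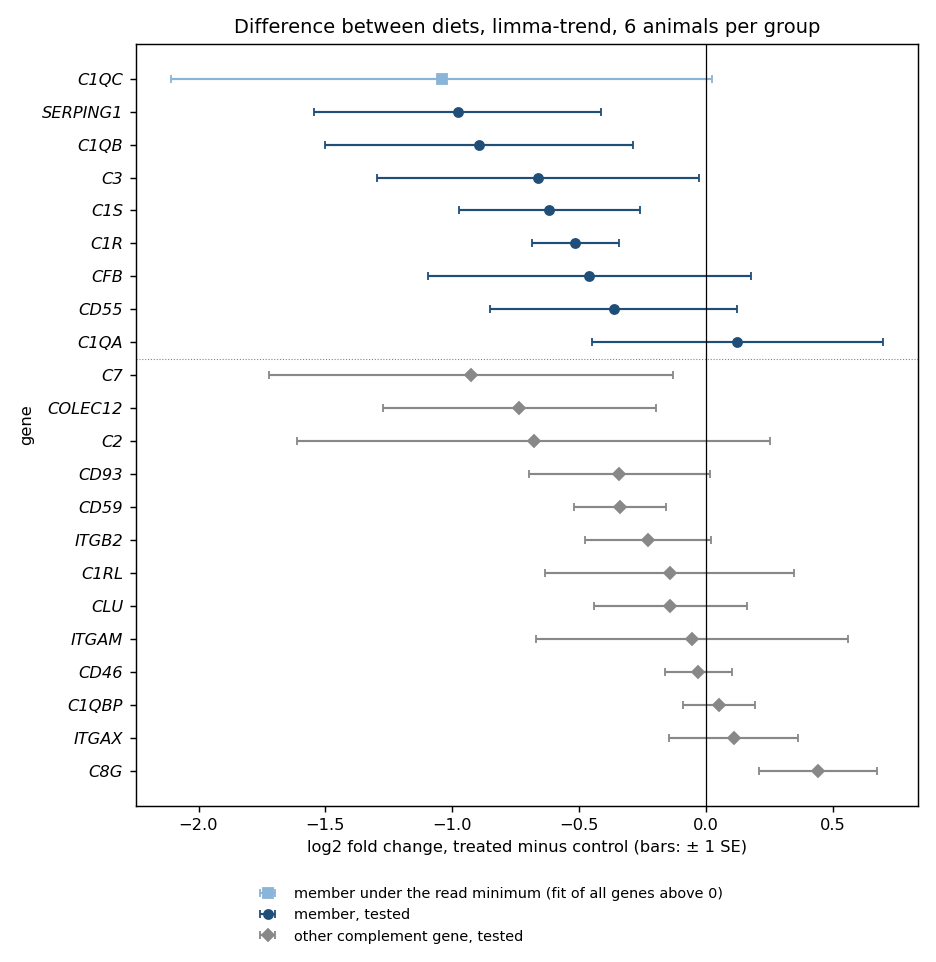
Log2 fold change, treated minus control (horizontal axis, bars ± 1 SE), for the 9 complement genes (top) and 13 other complement genes tested (bottom), from limma with 6 animals per group. C1R at -0.52 has the shortest bar of the 9 genes and is the only gene drawn that was below the nominal threshold of 0.05, and C1QC comes from the fit of all genes above 0.

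The list of genes known to control complement transcription held receptors and transcription factors of the interferon and interleukin responses. Of 16 listed, 13 were tested and 0 passed the nominal limma threshold, against 1.26% of all genes tested, with a median log2 difference of -0.11. The interferon gamma receptor gene IFNGR1 differed by -0.07 and IL6ST, the signal-transducing receptor chain for interleukin 6, by -0.29 (SE 0.14, exact permutation p of 0.0541). The authors listed IL6ST as reduced at a nominal edgeR p below 0.05, against a nominal limma p of 0.0577 here, so its call depends on the method. The transcription factor CEBPD, which acts downstream of interleukin 6, averaged 165 FPKM.

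The genes whose log2 levels followed each of 5 of the members most closely across the 12 animals were different sets. This is a description of 12 animals over all genes tested and was read with no test. For C1R they were FDFT1 (r = 0.83), SLC2A9 (0.79) and ANP32E (0.78). For C3 they were FSTL1, EGFLAM and TMEM47 (r = 0.95 each), and 26 genes had an r above 0.9. For CFB they were TNFAIP2 (r = 0.94), HS3ST1 and AGAP2 (0.91 each), for C1QB an unnamed gene, LOC102402539, and the interferon gamma receptor gene IFNGR1 (0.92 each), and for the CD55 row BCAP31 (0.85).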

How the data were processed

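RNA of 12 ruminal walls was measured by strand-specific total RNA sequencing. According to the methods and the submitters' processing notes, reads were trimmed with Trimmomatic 0.39 (minimum base quality 25, minimum length 35), aligned with STAR 2.5.2b to UOA_WB_1 and counted as pairs with featureCounts 2.0.0 (mapping quality 30 or more). The authors tested with edgeR and with NOISeq and deposited FPKM per gene. The tool that computed FPKM is not given in the sources used here. Of 16 value columns, 4 match no sample here and were not used.

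Whole reads were computed back from the FPKM (22972 of 22972 genes above 0, within 0.001 reads), and served as the filter: a gene had to reach 40 reads, scaled by TMM, in 1 animal or more, which left 12740 genes. Log2(FPKM + 0.01) was fitted with limma 3.58.1 (trend), treated minus control, two-sided, with Benjamini-Hochberg adjustment over the genes tested and a nominal threshold of 0.05. The fold change of a low gene depends on the pseudocount, and values near 0 weigh heavily on it. For SERPING1 the log2 difference was -0.98 with 0.01, -0.85 with 0.1 and -0.42 with 1. Exact permutation tests used all 924 assignments (smallest p 0.00216), and correlations 100000 resamples. The fit was also run on simulated reads drawn independently for each gene. That run does not cover genes that go together across the animals. Symbols were matched through RefSeq gene numbers (28666 of 34037). Alternatives were other pseudocounts (0.1 and 1), filters, scalings, robust shrinkage, voom on the reads, the replicate number as a block, a marker covariate and leaving out each animal.

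The members and all lists were chosen with earlier results of these data known. Named genes were all 9 members, every other complement gene below the nominal threshold and the 5 with the highest mean, of which 1 is not reported here; C7, C8G, C2, those named beside CD59 when 1 animal was left out, the genes named among the controls of transcription and the markers, and LOC102390054 and LOC102405428 were named after their values were seen. Of the other marker lists, endothelial (8 tested), T cell (4), B and plasma cell (1), neutrophil (4), mast cell (2) and glia (1) had 0 genes below the nominal threshold. Animals were separate samples by the labels, each with 1 library.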

Additional observations from a re-analysis of the deposited data

Results flagged for a closer look

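The C1QA level of control animal 6, 5.20 FPKM from 59 reads, stood apart from the other 5 controls, whose highest was 2.01 FPKM: the gap to that animal was 0.653 of the range of the group. It was the 1 such value among 20 groups of 6 animals looked at, and chance alone marks about 1 in 20. The same animal had the fewest counted fragments, 10531541, and the highest summed C1q level, 10.0 FPKM.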

How the results depend on the processing

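C1R was below the nominal threshold in all 11 other settings tried (log2 difference -0.52 to -0.47, nominal limma p of 0.00433 to 0.0202, exact permutation p of 0.0152 as one of them) and in all 12 fits that left out 1 animal (-0.59 to -0.42, nominal limma p of 0.00467 to 0.0248). It was the only member called in those 11 settings, and no other complement gene was called in them. With 1 animal left out, 1 to 2 members and 0 to 2 other complement genes were called. The number of genes called moved from 161 to 562 without a filter on low values (0 adjusted, smallest adjusted limma p 0.156), 301 with at least 0.1 FPKM in 6 animals, 345 with the marker score and 145 to 331 without 1 animal (331 without treated animal 6). The sign turned for C1QA with a pseudocount of 1 FPKM (-0.024) and for C3 with the marker score (0.23); the cause was not tested.

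Leaving out 1 animal gave -0.25 to 0.56 for C1QA (negative without control 1, control 2, treated animal 4 or treated animal 6), -1.23 to -0.46 for C1QB, -0.76 to -0.35 for C1S, -1.01 to -0.19 for C3, -0.64 to -0.08 for CD55, -0.85 to -0.17 for CFB, -1.25 to -0.45 for SERPING1 and -0.10 to 0.22 for the log2 ratio of C1R to C1S (negative without control 6 or treated animal 3). For Pearson's r it gave 0.64 to 0.76 (C1R with C1S), 0.57 to 0.71 (C1QA with C1QB), 0.53 to 0.80 (C1QA with C1QC), 0.43 to 0.66 (C1QB with C1QC), 0.45 to 0.75 (C1S with SERPING1), 0.47 to 0.77 (C1q with the macrophage score), 0.44 to 0.65 (C1R and C1S with the fibroblast score), -0.41 to 0.14 (C3 with CFB, positive without treated animal 1) and -0.30 to -0.03 (CD55 with the epithelial score). Without treated animal 1 the adjusted permutation p was 0.043 for C1R with C1S, C1QA with C1QB and C1S with SERPING1, and without treated animal 2 it was 0.015 for C1QA with C1QC and 0.0321 for C1q with the macrophage score. A pseudocount of 1 FPKM, which draws low values together, took 6 relations below an adjusted p of 0.05: r was 0.72 for C1R with C1S (p = 0.0272), 0.64 for C1QA with C1QB (0.04), 0.80 for C1QA with C1QC (0.0122), 0.75 for C1QB with C1QC (0.0245), 0.62 for C1S with SERPING1 (0.047) and 0.68 for C1q with the macrophage score (0.0364), all by permutation.

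The labels number the animals of both groups but state no pairing, and the numbers in the sample titles differ between the groups. The numbers were therefore not taken as pairs. Same-numbered animals still had a mean correlation of deviations of 0.21 (-0.01 to 0.41, 4 of 6 above 0.1), against -0.04 for other pairs. Of 12 animals, 7 correlated best with their own number. With the replicate block 325 genes were called, C1R among them (nominal limma p of 0.00433), and C1S had a nominal limma p of 0.0513. The depth limits C1QA, C1QB, C1QC and SERPING1, with 0 to 61 reads per animal.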
